A study of Mus musculus with 9 samples.

Results

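The genes described here are 10 immediate early transcription factor and regulator genes, Egr1, Egr2, Egr3, Nr4a1, Nr4a2, Nr4a3, Klf2, Klf4, Klf6 and Ier2, of 56748 genes in the deposited count table. They were taken by gene name, and each name occurred once. Polyadenylated RNA had been sequenced in 9 libraries, 3 per group, all from cortical tissue of C57BL/6J animals (genotype WT, 2 to 3 months old). Reactive culture is the whole, unsorted cell population that grew out of stab-wound lesion cores in a serum-containing medium (10% FBS, B27 supplement). Injured cortex is the lesion core of a grid of lancet wounds, dissociated with papain and sorted by flow cytometry. Uninjured cortex is intact tissue with the same sort label. The sort removed debris, dead cells and the neuronal fraction (CD171 positive, ACSA-2 negative), so both cortex groups hold mixed non-neuronal cells. Times are uncertain because 2 descriptions by the submitters differ. Per the labels, lesions were taken at day 1 and cultures kept for 6 days, whereas the design summary has injured tissue at day 3 and cultures started at 24 h and kept for 8 days.

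Immediate early genes are transcribed within minutes of a stimulus from factors already present in the cell, and their mRNAs are short-lived. Growth factors, calcium, stress and cytokines reach them through MAP kinases acting on serum response factor with its ETS partners, and through CREB at cyclic AMP response elements. The Egr genes encode zinc finger factors that bind GC-rich DNA, the Nr4a genes encode orphan nuclear receptors whose activity follows their abundance, and the Klf genes encode zinc finger factors of the Krüppel-like family. Enzymatic dissociation of brain tissue is itself known to induce many of these genes in glia. Sorting was common to both cortex groups and was not applied to the cultures, so in comparisons with cultures the handling and the culture conditions cannot be told apart.

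Libraries held 16667883 to 24302770 counts in reactive cultures, 20389561 to 21135163 in injured cortex and 12205049 to 18577561 in uninjured cortex. Levels of genes are given as CPM, counts scaled to library size, after correction for RNA composition by edgeR's TMM factors; sums over lists use the uncorrected library size. Uninjured replicates 2 and 3 stood apart in 2003 olfactory and vomeronasal receptor genes, which cortex does not use. These genes summed to 182 and 151 CPM there, against 14.4 to 44.1 CPM in the other 7 libraries. Marker lists described the material. Microglial markers were at 0 in no library, and their 8 genes summed to 948 to 1437 CPM in cultures, 7795 to 15785 CPM in injured cortex and 12420 to 17010 CPM in uninjured cortex. The 7 astrocyte markers summed to 62.5 to 112 CPM, 2142 to 5039 CPM and 4502 to 7620 CPM in the same groups. The 6 oligodendrocyte markers summed to 272 to 562 CPM in cultures, 13684 to 16101 CPM in injured cortex and 23502 to 37136 CPM in uninjured cortex, with no overlap. The 8 mural cell markers were split. Acta2, a smooth muscle actin that myofibroblasts also make, averaged 3423 CPM in cultures, 40.3 CPM in injured cortex and 73.4 CPM in uninjured cortex. The pericyte genes Rgs5, Higd1b, Kcnj8 and Abcc9 were called lower in cultures than in either cortex group. Pdgfrb, also on this list, was called higher in cultures than in injured cortex, at means of 69.1 and 24.9 CPM. In uninjured cortex Pdgfrb averaged 73.2 CPM. Of the 8, 4 fell and 4 rose in cultures against injured cortex, beside 30.1% and 20.0% of all genes. Against uninjured cortex 4 fell and 3 rose, beside 33.1% and 27.5%. The 7 fibroblast markers summed to 282 to 627 CPM in cultures, 99.6 to 305 CPM in injured cortex and 44.1 to 76.6 CPM in uninjured cortex. The 8 neuronal markers summed to 16.9 to 23.0 CPM in cultures, 42.3 to 96.9 CPM in injured cortex and 18.4 to 32.0 CPM in uninjured cortex, with Gad2 at 0 in injured replicates 2 and 3. Marker sums thus differed between the groups along with the genes described here, and the part of cell make-up in the levels of these genes was not tested. In bulk RNA, fewer cells of a type and less RNA per cell cannot be told apart.

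In injured against uninjured cortex, the 3 Nr4a genes and Egr3 rose, and the other 6 genes did not pass the test. The calls were thus 4 of 10 higher and 0 lower, where 8.99% of all 18093 genes tested were called higher and 2.87% lower (edgeR's quasi-likelihood test, Benjamini-Hochberg adjusted p under 0.05). The median log2 fold change was 1.03 over the 10 genes and 0.00 over all genes tested. The groups did not overlap for the 4 called genes, as for 28.6% of all genes. At an unadjusted p under 0.05, which 26.2% of all genes passed, 6 were higher and 0 lower, and DESeq2 and limma-voom each called the same 4. In reactive cultures against injured cortex, 8 of 10 were lower, with Egr2 and Klf6 the exceptions, beside 30.1% of all genes called lower and 50.1% called in either direction. None was higher, also at an unadjusted p under 0.05 (57.1% of all genes) or by DESeq2 or limma-voom, and the groups did not overlap for 9 of 10, beside 59.6% of all genes. In cultures against uninjured cortex, 6 of 10 were lower and 0 higher, beside 33.1% of all genes called lower and 60.5% in either direction. At an unadjusted p under 0.05 (65.1% of all genes) 7 were lower and 0 higher, DESeq2 called 7 lower and limma-voom 6, and the groups did not overlap for 6 of 10, beside 69.2% of all genes. All 10 genes passed the filter on low counts. The 3 comparisons share libraries pairwise and are not independent of one another.

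**Figure D1:**
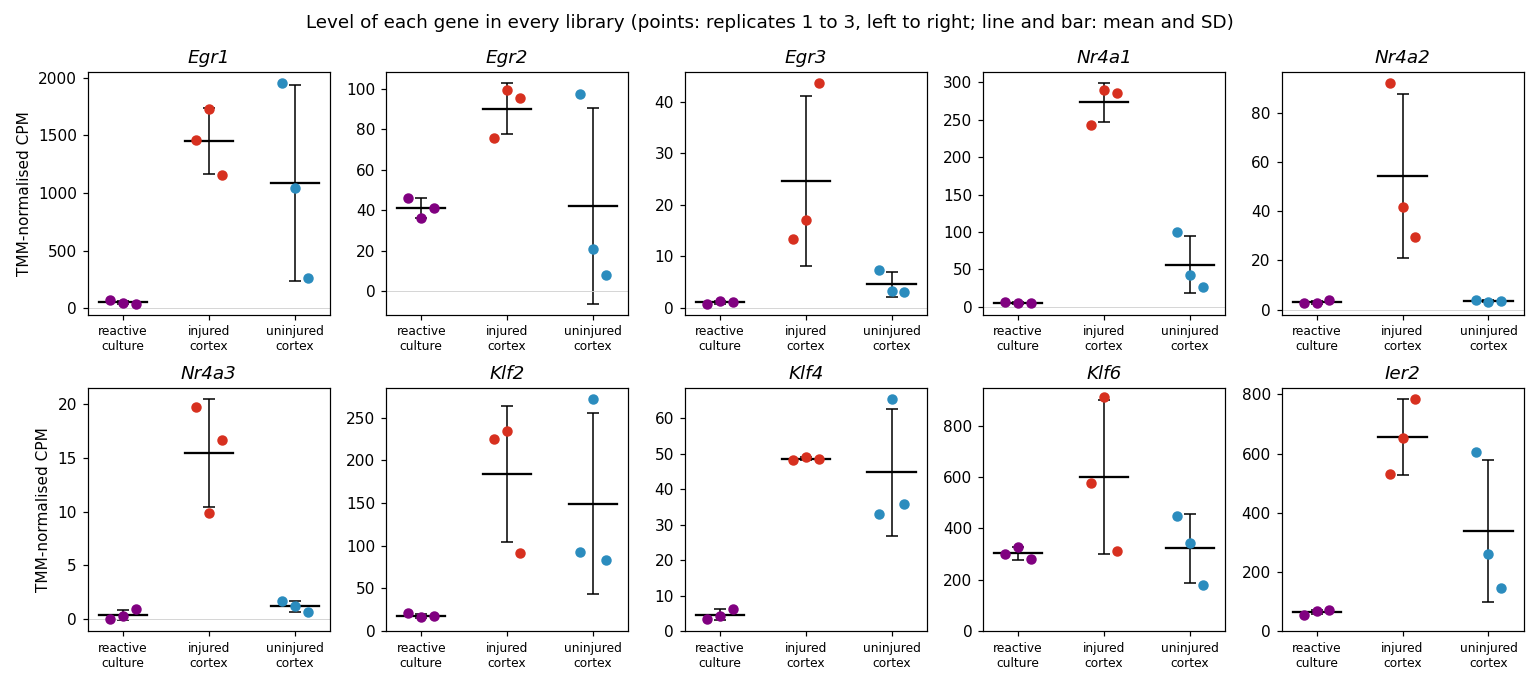
Level of each gene in TMM-normalised CPM (vertical axes, linear and scaled per gene) in reactive culture, injured cortex and uninjured cortex; points are the 3 libraries of a group, lines and bars their mean and SD. The Nr4a genes and Egr3 are higher in every injured library than in every uninjured one, Egr1 spreads from 261 to 1955 CPM within uninjured cortex, and Egr2 and Klf6 remain in the cultures at levels inside the uninjured range.

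**Figure D2:**
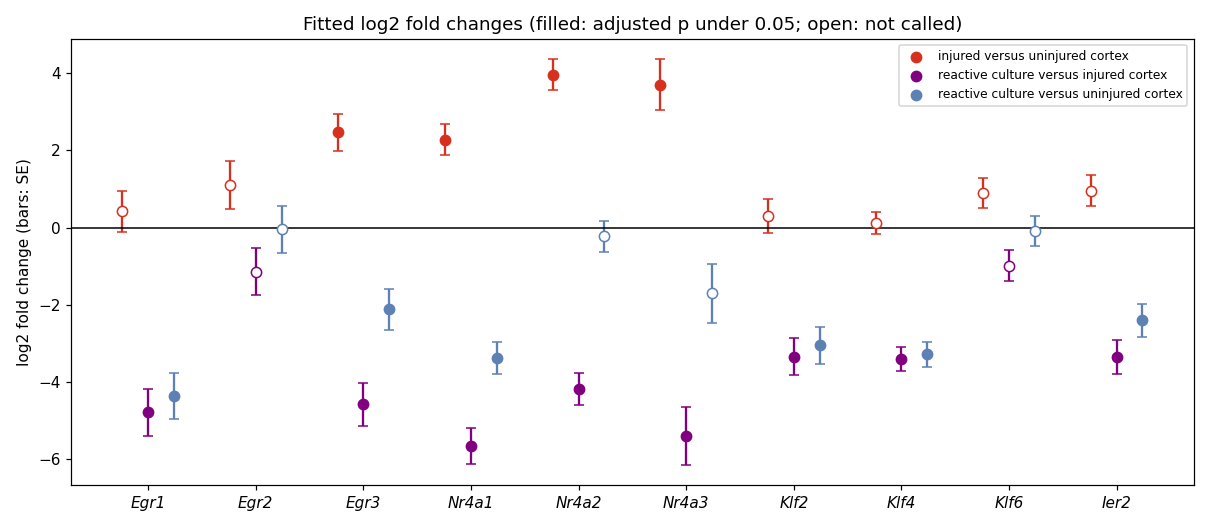
Log2 fold change of each gene (vertical axis) with its SE, for injured over uninjured cortex, culture over injured cortex and culture over uninjured cortex; filled points had an adjusted p under 0.05. The change after injury spans 0.12 for Klf4 to 3.95 for Nr4a2, and the change in culture against injured cortex spans -5.65 for Nr4a1 to -0.99 for Klf6.

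The Nr4a genes encode NUR77 (Nr4a1), NURR1 (Nr4a2) and NOR1 (Nr4a3), receptors that act without a known hormone. In macrophages and microglia they are known for restraining inflammatory gene expression, and NURR1 also for the development of dopamine neurons. Promoter sequence from RefSeq (GRCm38.p6, while the counts were made on GRCm39) was matched by symbol for 7 of the 10 genes. Egr1, Egr3 and Ier2 had no entry and were not searched. The 250 bases before the annotated start are shown for the 3 Nr4a genes because these genes rose together after injury and share a known input from CREB. Capitals mark the CRE half-site, TGACG on either strand, which reads CGTCA when on the other strand. The windows are chr15:101266596-101266845 on the plus strand, chr2:57124004-57124253 on the minus strand and chr4:48045055-48045304 on the plus strand.
Nr4a1: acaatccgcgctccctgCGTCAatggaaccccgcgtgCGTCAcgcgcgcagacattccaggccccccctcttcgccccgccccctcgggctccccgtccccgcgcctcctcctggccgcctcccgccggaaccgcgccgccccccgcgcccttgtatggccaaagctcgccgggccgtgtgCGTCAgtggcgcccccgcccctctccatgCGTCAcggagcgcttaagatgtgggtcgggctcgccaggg
Nr4a2: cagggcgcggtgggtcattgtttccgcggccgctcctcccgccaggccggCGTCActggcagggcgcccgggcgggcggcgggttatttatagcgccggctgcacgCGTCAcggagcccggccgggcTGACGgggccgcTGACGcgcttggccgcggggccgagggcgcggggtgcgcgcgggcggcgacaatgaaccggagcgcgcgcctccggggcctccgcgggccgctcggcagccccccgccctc
Nr4a3: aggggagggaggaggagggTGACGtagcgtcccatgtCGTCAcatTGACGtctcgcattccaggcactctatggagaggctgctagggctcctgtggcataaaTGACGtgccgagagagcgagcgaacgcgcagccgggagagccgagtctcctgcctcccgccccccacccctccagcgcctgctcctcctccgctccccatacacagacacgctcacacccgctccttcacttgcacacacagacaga
Each window held 4 half-sites. Of 32851 RefSeq promoter windows of the same length, 17.8% held at least 1 and 0.137% held 4 or more. Those windows were not matched for base composition, and the half-site itself holds a CG. The shares therefore do not measure how unusual the count is among windows rich in G and C. The full palindrome, TGACGTCA, was in none of the 3 and in 1.55% of all windows, and neither the CArG box bound by serum response factor nor the NBRE bound by the NR4A receptors themselves, AAAGGTCA, was found in these stretches. These are matches of letters and not measured sites. In the remaining matched windows, the half-site count was 2 in Egr2, 1 in Klf2, 1 in Klf4 and 0 in Klf6.

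Nr4a1 was at 6.87, 4.71 and 4.69 CPM in reactive culture replicates 1, 2 and 3, at 243, 290.2 and 286 CPM in injured cortex and at 99.6, 43.1 and 26.4 CPM in uninjured cortex. No group overlapped another, and the order was injured, uninjured, culture. Injured cortex was the most uniform, with a coefficient of variation of 9.55% against 68.1% in uninjured cortex. The log2 fold change was 2.28 ± 0.40 (SE) in injured over uninjured cortex (edgeR, adjusted p = 0.00287), a 4.84-fold difference. It was -5.65 ± 0.47 in culture over injured cortex (adjusted p = 1.91e-06) and -3.38 ± 0.43 in culture over uninjured cortex (adjusted p = 3.36e-05). With uninjured replicates 2 and 3 left out, so that only the uninjured library with the highest Nr4a1 remained, the change after injury was 1.44 (adjusted p = 0.0663; 1.88e-15 to 0.0663 over 20 alternatives).

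Nr4a2 was at 2.76, 2.53 and 3.75 CPM in cultures, at 92.4, 41.9 and 29.4 CPM in injured cortex and at 3.81, 3.09 and 3.64 CPM in uninjured cortex. The injured libraries stood apart from all others while differing 3.14-fold among themselves. This was the widest change of the 10 after injury, 15.5-fold (log2 fold change 3.95 ± 0.40, adjusted p = 9.92e-05 in edgeR), and the only one of the 4 calls that persisted with uninjured replicates 2 and 3 left out. Cultures and uninjured cortex overlapped (-0.23 ± 0.39, adjusted p = 0.626), and culture against injured cortex gave -4.18 ± 0.41 (adjusted p = 7.53e-06).

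Nr4a3 had 0, 4 and 12 raw counts in the cultures, 419, 189 and 491 in injured cortex and 31, 26 and 11 in uninjured cortex. These correspond to 0, 0.230 and 0.939 CPM, to 19.7, 9.89 and 16.7 CPM and to 1.71, 1.17 and 0.668 CPM. Injured libraries were again apart from the rest, whereas cultures and uninjured cortex overlapped. The log2 fold change was 3.69 ± 0.65 after injury (adjusted p = 0.00323 in edgeR) and -5.39 ± 0.75 in culture against injured cortex (adjusted p = 1.17e-04). Culture against uninjured cortex gave -1.70 ± 0.76 (adjusted p = 0.0704), and was called in 5 of 20 alternatives: DESeq2's Wald test, limma-voom, no filter on low counts, trimmed library sizes, and without culture replicate 3. That library holds 12 of the 16 culture counts, and leaving it out gave -3.25 (adjusted p = 0.00736; 0.00323 to 0.198 over the alternatives). Against uninjured replicate 1 alone, the change after injury was 3.16 and not called (adjusted p = 0.149; 4.08e-16 to 0.149 over 20 alternatives).

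The share of Nr4a2 among Nr4a transcripts was described by a ratio chosen after its values were seen and not tested. Nr4a2 counts per Nr4a1 count, a ratio in which depth cancels, were 0.402, 0.537 and 0.800 in culture, 0.380, 0.144 and 0.103 in injured cortex and 0.0382, 0.0718 and 0.138 in uninjured cortex. The cultures were above both cortex groups, by little for the lowest culture value against the highest injured one, and the cortex groups overlapped each other. Per kilobase of exon, where levels of different genes can be set side by side, Nr4a1 averaged 77.9 ± 7.44 CPM per kb in injured cortex (SD, n = 3), Nr4a2 13.4 ± 8.21 and Nr4a3 2.58 ± 0.843. In uninjured cortex the same order held, at 16.1 ± 10.9, 0.866 ± 0.0919 and 0.197 ± 0.0871 CPM per kb.

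Egr1, Egr2 and Egr3 encode closely related zinc finger activators. EGR1 is the broad growth and stress response factor, EGR2 (Krox20) is known for hindbrain patterning, myelination by Schwann cells and for lymphocyte and macrophage states, and EGR3 for lymphocyte tolerance and muscle spindles. The upstream stretch of Egr2 (chr10:67537619-67537868, plus strand, GRCm38.p6) is shown because it alone among the 7 matched genes held a CArG box, which capitals mark. Egr1 and Egr3 had no matched window and were not searched, so the stretches of the Egr genes cannot be compared.
Egr2: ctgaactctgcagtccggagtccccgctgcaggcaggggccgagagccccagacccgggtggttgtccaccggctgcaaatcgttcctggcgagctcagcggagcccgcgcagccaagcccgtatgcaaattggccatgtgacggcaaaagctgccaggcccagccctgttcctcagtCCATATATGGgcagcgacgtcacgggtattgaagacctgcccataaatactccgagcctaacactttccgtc
A CArG box was found in 1.47% of all RefSeq windows of this length. The EGR motif GCGTGGGCG was found in none of the 7 stretches and in 0.536% of all windows. RefSeq lists 5 starts for Egr2, and the one nearest to the principal transcript was used.

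Egr1 was at 68.1, 49.4 and 40.8 CPM in reactive cultures, at 1460.1, 1730.2 and 1159 CPM in injured cortex and at 1955, 1042 and 261 CPM in uninjured cortex. Cultures were below every cortex library, and the injured range lay inside the uninjured one. Egr1 was therefore abundant in sorted cells with and without a wound, and the change after injury was 0.42 ± 0.52 (adjusted p = 0.666, edgeR). Its sign followed the uninjured libraries used, being 1.16 without replicate 1, -0.07 without replicate 3 and -0.45 without replicates 2 and 3, never called. The difference in culture was -4.78 ± 0.61 against injured cortex (adjusted p = 6.07e-05) and -4.37 ± 0.60 against uninjured cortex (adjusted p = 6.86e-05), or 27.5-fold and 20.6-fold lower.

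Egr2 was at 46.2, 36.1 and 41.0 CPM in cultures, at 76.0, 99.8 and 95.4 CPM in injured cortex and at 97.7, 20.9 and 8.20 CPM in uninjured cortex. Cultures lay below all injured libraries, and uninjured replicate 1 lay within the injured range while the other two were below every culture. None of the 3 comparisons was called: injured over uninjured gave 1.10 ± 0.61 (adjusted p = 0.289), culture over injured -1.14 ± 0.62 (adjusted p = 0.139) and culture over uninjured -0.04 ± 0.61 (adjusted p = 0.955), all from edgeR. Values against uninjured cortex moved with uninjured replicate 1. Without it, Egr2 was higher after injury (2.64, adjusted p = 0.00119), a call also made with no filter on low counts, and higher in culture than in uninjured cortex (1.50, adjusted p = 0.00355). Without uninjured replicates 2 and 3 the last of these was -1.26 (adjusted p = 0.0059). Culture over injured cortex was called in 5 of 20 alternatives. These left out uninjured replicate 1, replicate 3 or both 2 and 3, used no filter, or fitted the 2 groups alone. The log2 fold change lay between -1.39 and -1.05 in all 20. Over the 20 alternatives the adjusted p spanned 3.63e-04 to 1 after injury, 6.37e-05 to 0.488 in culture against injured cortex and 0.00355 to 1.00 in culture against uninjured cortex.

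Egr3 was at 0.737, 1.32 and 1.02 CPM in cultures, at 13.3, 16.9 and 43.7 CPM in injured cortex and at 7.34, 3.14 and 2.98 CPM in uninjured cortex. No group overlapped another, in the order injured, uninjured, culture, as for Nr4a1. The log2 fold change was 2.46 ± 0.49 after injury (adjusted p = 0.00645 in edgeR), and 1.74 with uninjured replicates 2 and 3 left out, where it was not called (adjusted p = 0.250; 4.43e-11 to 0.250 over 20 alternatives). Culture gave -4.58 ± 0.56 against injured cortex (adjusted p = 4.27e-05) and -2.12 ± 0.54 against uninjured cortex (adjusted p = 0.00483). The last call was missed in limma-voom (adjusted p = 0.0519; 2.70e-07 to 0.0519 over 20 alternatives).

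Egr1 counts per Egr2 count were 1.47, 1.37 and 0.996 in the cultures, 19.2, 17.3 and 12.2 in injured cortex and 20.0, 49.8 and 31.9 in uninjured cortex. The groups did not overlap. With 3 libraries a group a comparison cannot give an exact permutation p below 0.1, so this ratio, chosen after its values were seen, was not tested. On the scale of levels per length, Egr1 and Egr2 were alike in culture, at 11.8 ± 3.11 and 12.1 ± 1.48 CPM per kb (SD, n = 3), against 323 ± 63.7 and 26.6 ± 3.73 in injured cortex and 242 ± 189 and 12.4 ± 14.2 in uninjured cortex.

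**Figure D3:**
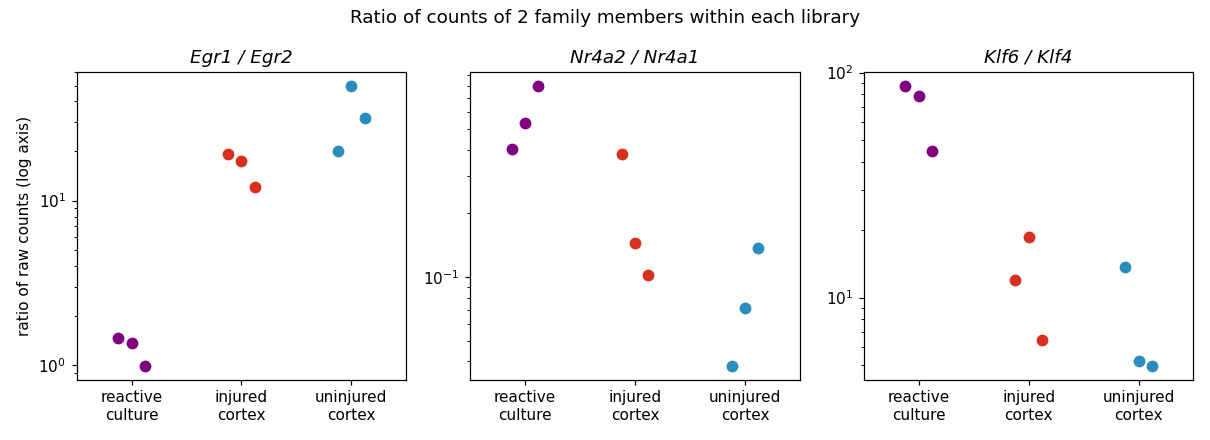
Ratio of raw counts of 2 genes of a family in each library (log axes), for Egr1 over Egr2, Nr4a2 over Nr4a1 and Klf6 over Klf4, in reactive culture, injured cortex and uninjured cortex; points are replicates 1 to 3. The culture libraries lie outside the cortex range in all 3 panels, at 0.996 to 1.47 for Egr1 over Egr2.

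KLF2 and KLF4 are known as factors of quiescent endothelium induced by blood flow, KLF2 also of resting T cells and monocytes, and KLF4 of monocyte differentiation and of pluripotency. Klf2 was at 20.7, 16.1 and 17.6 CPM in cultures, at 225, 235 and 91.8 CPM in injured cortex and at 92.4, 272 and 83.3 CPM in uninjured cortex. Klf4 was at 3.44, 4.20 and 6.26 CPM in cultures, at 48.1, 49.0 and 48.5 CPM in injured cortex and at 32.8, 65.3 and 35.9 CPM in uninjured cortex. For both genes the cortex groups overlapped and every culture was below every cortex library. The change after injury was 0.30 ± 0.44 for Klf2 (adjusted p = 0.722, edgeR), and 0.12 ± 0.28 for Klf4 (adjusted p = 0.838). Klf4 turned to -0.01 with upper-quartile scaling and to -0.04 with library sizes free of the most abundant genes.

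In culture against injured cortex the values were -3.34 ± 0.49 for Klf2 (adjusted p = 1.55e-04, edgeR) and -3.40 ± 0.32 for Klf4 (adjusted p = 4.85e-06), or 10.1-fold and 10.5-fold lower. Against uninjured cortex they were -3.04 ± 0.48 (adjusted p = 1.93e-04) and -3.28 ± 0.31 (adjusted p = 3.62e-06). The 8 endothelial markers summed to 70.2 to 100.1 CPM in cultures, 274 to 630.2 CPM in injured cortex and 229 to 601 CPM in uninjured cortex, and 3 and 5 of them were called lower in cultures against the 2 cortex groups, with 0 higher, beside 30.1% and 33.1% of all genes lower. At an unadjusted p under 0.05 these counts were 4 and 5, beside 57.1% and 65.1% of all genes in either direction. They were 3 and 5 by DESeq2 and 3 and 4 by limma-voom. In each of these, 0 were higher. None of these endothelial markers was at 0 in any library. Pecam1, Cdh5 and Flt1 were not called against either cortex group. Flt1 averaged 52.7 CPM in cultures, 55.4 CPM in injured cortex and 63.4 CPM in uninjured cortex, and Pecam1 10.2, 10.3 and 9.90 CPM. All 8 microglial, 7 astrocyte and 6 oligodendrocyte markers were also called lower in cultures against both cortex groups. The part of any of these lists in the Klf2 and Klf4 values was not tested. Klf2 and Klf4 shared their highest uninjured library, replicate 2, where the endothelial sum was the lowest of the group.

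KLF6, a ubiquitous zinc finger factor linked to injury and growth responses, behaved unlike the other pair. Klf6 was at 300.0, 328 and 279.5 CPM in cultures, at 575, 909.6 and 312 CPM in injured cortex and at 447, 342 and 179 CPM in uninjured cortex. The ranges overlapped in all 3 comparisons. Injured over uninjured gave 0.89 ± 0.39 (adjusted p = 0.168 in edgeR) and culture over uninjured -0.09 ± 0.39 (adjusted p = 0.845). Culture over injured gave -0.99 ± 0.39 (adjusted p = 0.0527), close to the threshold, and was called lower in 11 of 20 alternative settings, among them DESeq2's Wald test (adjusted p = 0.0371). The adjusted p was 0.00572 without injured replicate 3, which has the lowest Klf6 of its group, and spanned 0.00355 to 0.563 over the alternatives. Leaving out injured replicate 2, the highest, gave -0.55. Klf6 was the most abundant of the 10 in culture per length, at 68.9 ± 5.59 CPM per kb (SD, n = 3), followed by Ier2 at 42.3 ± 5.02. Klf6 counts per Klf4 count were 87.3, 78.3 and 44.7 in culture, 11.9, 18.6 and 6.44 in injured cortex and 13.6, 5.24 and 4.98 in uninjured cortex, with cultures apart from the rest.

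Ier2, which encodes a small nuclear regulator of cell motility and transcription, was at 55.7, 67.0 and 70.3 CPM in cultures, at 530.0, 652 and 785 CPM in injured cortex and at 606, 261 and 147 CPM in uninjured cortex. Uninjured replicate 1 fell within the injured range, as it did for Egr2, and cultures were below all cortex libraries. The change after injury was 0.96 ± 0.41 (adjusted p = 0.160, edgeR), 1.70 without uninjured replicate 1 (adjusted p = 0.00672) and 0.10 without uninjured replicates 2 and 3, with an adjusted p of 0.00672 to 1 over 20 alternatives. Culture gave -3.35 ± 0.45 against injured cortex (adjusted p = 8.09e-05) and -2.40 ± 0.43 against uninjured cortex (adjusted p = 4.96e-04).

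Variation within a group was shared between genes in uninjured cortex. Replicate 1 had the highest value for 8 of the 10 genes, all but Klf2 and Klf4, and replicate 3 the lowest for 8, all but Nr4a2 and Klf4. Within uninjured cortex the highest library exceeded the lowest 11.9-fold for Egr2, 7.48-fold for Egr1, 4.13-fold for Ier2 and 3.77-fold for Nr4a1, but 1.23-fold for Nr4a2. In injured cortex no library led to this extent: replicate 2 was highest for 6 genes, and replicates 1 and 3 for 2 each. The receptor counts given above were lowest, among the uninjured libraries, in replicate 1. Whether these differences between uninjured libraries reflect the animals or the handling was not tested.

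**Figure D4:**
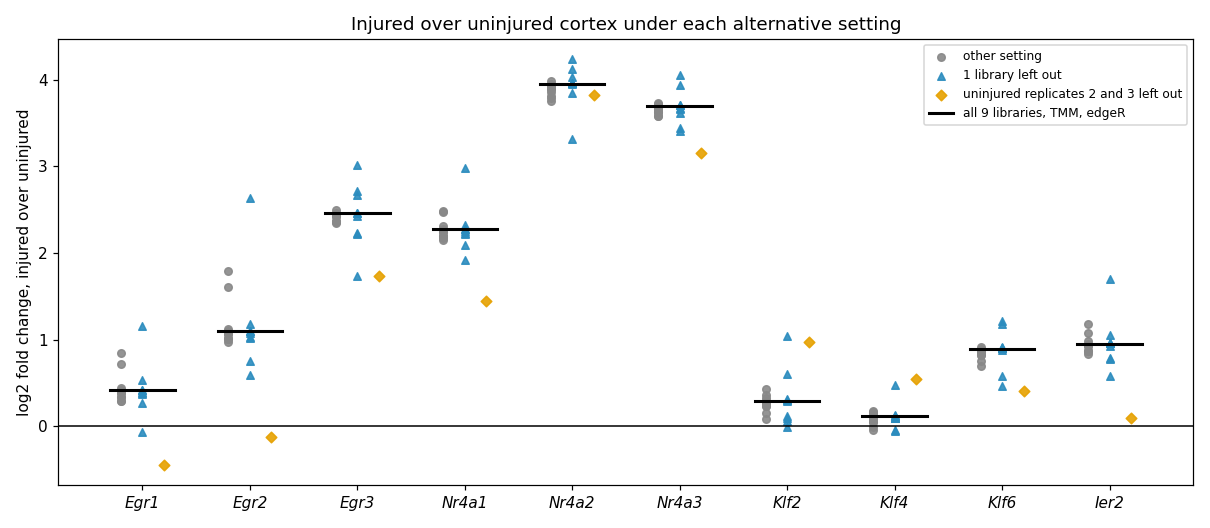
Log2 fold change of each gene in injured over uninjured cortex (vertical axis) with all 9 libraries (black line), under other scalings, tests and filters (circles), with 1 library left out (triangles) and with uninjured replicates 2 and 3 left out (diamonds). The Nr4a genes and Egr3 are at or above 1.44 in every setting shown, while Egr1, Egr2, Klf2 and Klf4 cross 0.

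The wider circle of immediate early genes was read from a list of 30 genes, 29 of them tested, chosen with earlier results of these data known. After injury, 8 rose, among them Fosl2 (2.17), which encodes an AP-1 subunit, Egr4 (4.40) of the Egr family and Socs3 (1.66), the feedback inhibitor of STAT3 signalling, and 0 fell, beside 8.99% and 2.87% of all genes. At an unadjusted p under 0.05, 11 were higher and 0 lower, and DESeq2 and limma-voom called 11 and 10 higher and 0 lower. The list median was 0.68. Fos, the prototype of the class, was at 2801 ± 1003 CPM in injured cortex and 2109 ± 1239 CPM in uninjured cortex (SD, n = 3), with a change of 0.41 ± 0.47 (adjusted p = 0.630 in edgeR). Junb (0.60), Atf3 (0.43) and Dusp1 (0.15) likewise did not pass. Egr4 was at 1.13, 2.35 and 1.43 CPM in injured cortex and at 0.110, 0.0449 and 0.0607 CPM in uninjured cortex, so its rise rests on few counts. Against injured cortex, 22 fell in culture, beside 30.1% of all genes, with the smallest adjusted p for Fosb (-7.95), Nfkbiz (-6.32) and Socs3 (-4.36), and 4 rose, beside 20.0% of all genes, Ccn1 (3.52), Plk2 (2.80), Ier5l (1.37) and Fosl1 (2.45). Ccn1, a matricellular target of YAP and serum response factor, was at 924 ± 92.7 CPM in culture, 80.7 ± 12.4 in injured cortex and 82.8 ± 47.1 in uninjured cortex. In culture against uninjured cortex, 14 fell and 7 rose, beside 33.1% and 27.5% of all genes. The list medians were -2.15 and -1.16, and those of all genes -0.19 and -0.17.

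**Figure D5:**
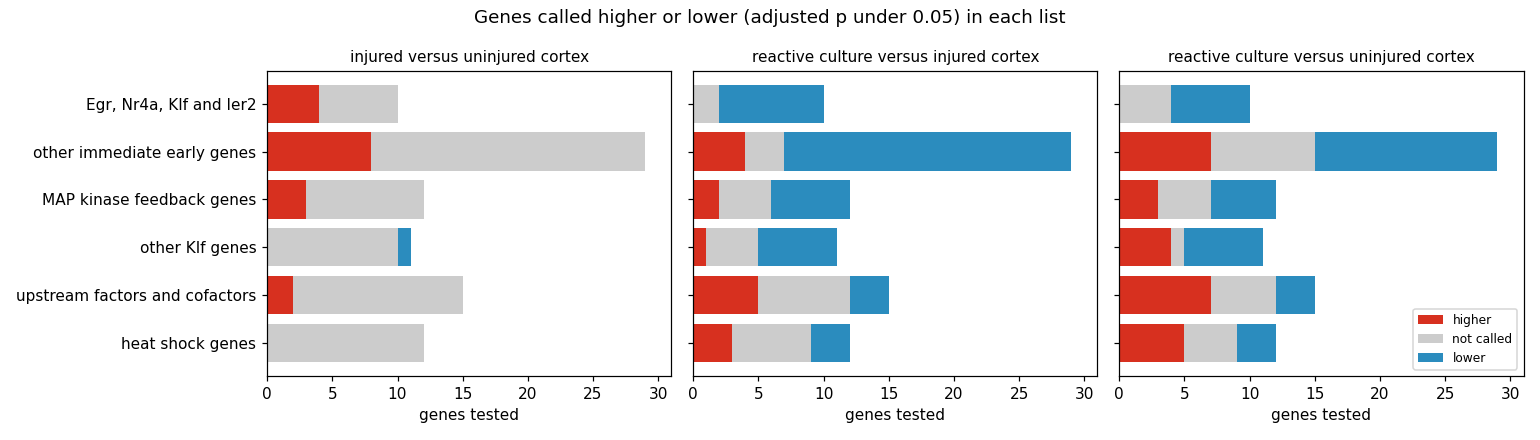
Number of tested genes called higher, not called and called lower (horizontal axes) in the 10 genes described here and in 5 lists, for each comparison. In culture against injured cortex, 8 of the 10 genes and 22 of 29 other immediate early genes are lower, with 0 and 4 higher. Of 15 upstream factors and cofactors, 3 are lower and 5 higher. Shares of all genes are 30.1% lower and 20.0% higher.

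Of 15 upstream factors and cofactors, 2 rose after injury, beside 8.99% of all genes. Crem (2.64), an inducible repressor and activator at CRE sites, and Nab2 (0.86) rose, and 0 fell. At an unadjusted p under 0.05, 6 were higher and 0 lower, beside 26.2% of all genes in either direction; DESeq2 called the same pair, and limma-voom only Crem. Against injured cortex 5 rose in culture and 3 fell, beside 20.0% and 30.1% of all genes, among them Nab2 (1.73), Srf (1.30) and Rxra (1.21) higher and Crtc3 (-1.35), Rxrb (-0.68) and Elk4 (-1.01) lower. NAB1 and NAB2 are corepressors that bind EGR proteins. Nab2 was at 28.8, 21.8 and 21.3 CPM in culture, at 7.16, 7.48 and 7.00 CPM in injured cortex and at 4.58, 3.54 and 3.77 CPM in uninjured cortex, with no overlap between any of the groups. Its order, culture, injured, uninjured, is not that of any of the Egr genes. Nab1 was also higher in culture than in injured (0.74) and uninjured cortex (1.54), and its change after injury was 0.80 ± 0.27 (adjusted p = 0.0723 in edgeR). Srf was higher in culture than in uninjured cortex (2.04), one of 7 genes of this list that rose there while 3 fell, beside 27.5% and 33.1% of all genes.

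Among 12 MAP kinase feedback genes, Dusp5 (3.59), Dusp4 (2.29) and Dusp2 (2.39), which encode phosphatases that switch off nuclear MAP kinases, rose after injury and 0 fell (8.99% and 2.87% of all genes), also at an unadjusted p and by DESeq2, while limma-voom missed Dusp4. In culture against injured cortex 6 fell, with the smallest adjusted p for Spry1 (-2.29), Dusp2 (-3.83) and Dusp1 (-2.23), and 2 rose, Dusp4 (3.86) and Spry4 (1.52), beside 30.1% and 20.0% of all genes. In culture against uninjured cortex 5 fell and 3 rose, beside 33.1% and 27.5%. Of 14 other Klf genes, 11 were tested. Klf15 fell after injury (-1.36), and no other Klf gene was called; at an unadjusted p under 0.05, 3 were higher and 3 lower, DESeq2 called 3 lower and 0 higher, and limma-voom Klf15 alone. Against injured cortex 6 fell in culture, with the smallest adjusted p for Klf15 (-3.21), Klf7 (-1.31) and Klf3 (-0.89), and Klf5 rose (2.15), beside the same shares as above. In culture against uninjured cortex 6 fell and 4 rose, beside 33.1% and 27.5% of all genes and 60.5% called in either direction. Klf9, known as a glucocorticoid-induced gene, was at 16.8 ± 3.25 CPM in culture, 28.4 ± 20.8 in injured cortex and 49.4 ± 9.81 in uninjured cortex, and was called lower in culture against uninjured cortex (-1.56 ± 0.41, adjusted p = 0.00587 in edgeR). Klf10 was higher in culture than in uninjured cortex (1.35).

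Heat shock genes were read as a second class that rises with cell stress. None of 12 was called after injury by edgeR, DESeq2 or limma-voom, and 1, Hspe1, had an unadjusted p under 0.05, as did 26.2% of all genes. Against injured cortex Hspa1a (-5.30), Hspa1b (-3.99) and Dnajb1 (-2.06), inducible chaperones and a co-chaperone, fell in culture, while Hspb1 (2.10), Bag3 (1.13) and Hspd1 (0.98) rose. These counts, 3 lower and 3 higher of 12, stand beside 30.1% and 20.0% of all genes, and the list median was 0.32. Hspa1a was at 1.99 ± 0.365 CPM in culture, 78.8 ± 57.0 in injured cortex and 79.5 ± 46.0 in uninjured cortex (SD, n = 3). Hspa1a and Hspa1b are near-identical copies, so the split of reads between them is uncertain. In culture against uninjured cortex 3 fell and 5 rose, beside 33.1% and 27.5% of all genes.

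Markers of other cells moved with the injury. The 8 markers of recruited myeloid cells summed to 1905, 762 and 568 CPM in injured replicates 1, 2 and 3, against 35.9, 127 and 139 CPM in uninjured cortex, and 7 of them rose. The 6 T cell markers summed to 243, 90.5 and 93.6 CPM against 5.99, 23.9 and 29.5 CPM, and all 6 rose. Of 7 neuronal markers tested, Tubb3 rose. Of 7 fibroblast markers, 2 rose and 0 fell (list median 0.61), and DESeq2 and limma-voom each called Fn1 and Dcn higher. Other lists held markers that fell: 4 of 8 mural markers (Rgs5, Pdgfrb, Higd1b and Kcnj8; list median -1.49), 1 of 7 astrocyte markers (Gjb6; median -1.04) and 1 of 6 oligodendrocyte markers (Opalin; median -0.71). Of all genes tested, 8.99% were called higher and 2.87% lower. DESeq2 called 5 mural, 4 astrocyte and 2 oligodendrocyte markers lower, and limma-voom 4, 2 and 1. Called higher were 8 recruited myeloid and 5 T cell markers by DESeq2, and 8 and 6 by limma-voom. Cd3e and Cd8a were at 0 in uninjured replicate 1, and Ly6g was at 0 there too. Nr4a2 and Nr4a3 were highest in injured replicate 1, as both immune sums were, whereas Nr4a1 and Egr3 were lowest there. The part of these cells in the Nr4a and Egr3 changes was not tested.

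The genes most like each member were sought by Pearson's r over the 9 libraries, on log2 CPM, among 9089 genes outside the set with a mean of at least 10 CPM. The libraries fall into 3 separate groups, so r mainly follows the group levels, and it is given as a description. Zfp36 (r = 0.995), which encodes an mRNA decay factor, and Yju2 (0.991) were nearest to Egr1. Socs3 (0.993) and Ankrd11 (0.989) were nearest to Nr4a1, and Nfkbid (0.988) and Nfkbia (0.979), inhibitors of NF-kB, to Ier2. Serpina3n (0.985) and Slfn4 (0.982) were nearest to Nr4a2, Ctsw (0.956) and Gfap (0.954) to Nr4a3, and Car8 (0.959) and Cdk11b (0.956) to Egr3. Scrn1 (0.989) and Tmco6 (0.988) were nearest to Klf4, Olfml3 (0.977) and Pfkfb4 (0.973) to Klf2, Lcp2 (0.977) and Zfand5 (0.976) to Klf6, and Gadd45b (0.935) and Aspscr1 (0.927) to Egr2.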

How the data were processed

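Polyadenylated RNA was sequenced in 9 libraries, 3 each from reactive culture, injured cortex and uninjured cortex, grouped by their titles. The values are raw counts per gene as deposited by the authors. HISAT2 and GRCm39 are named in the submitters' processing notes, without versions. The sources used here do not state how reads were assigned to genes, whether strand was used, or from which annotation. The biological replicates are stated as such by the design text.

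Tests were run in edgeR 4.0.16 (R 4.3.3). Genes kept by filterByExpr (18093 of 56748) were scaled by TMM and fitted with 1 mean per group over all 9 libraries, leaving 6 residual degrees of freedom. The quasi-likelihood test was adjusted by the Benjamini-Hochberg method over all genes tested, with calls at 0.05. Log2 fold changes are given with SE, and levels as TMM-scaled CPM over the library total; list sums are CPM of the unscaled total. Repeated symbols kept the gene with the highest total. Lengths are exon unions from GENCODE M21 (GRCm38), matched by gene ID. The fit was tested on simulated counts. The members, gene lists and rule for named genes (all members, up to 3 called genes of each list per direction and comparison with the smallest adjusted p, a panel of 10, and the 2 genes most like each member) were chosen with earlier results of these data known. Further genes are named, after their values were seen, where few of a list moved, and the 3 ratios of counts were chosen after values were seen. Alternatives were DESeq2 1.42.0 size factors and Wald test, upper-quartile scaling, library sizes computed after removing mitochondrial genes and the 100 with the highest counts, limma-voom (limma 3.58.1), no filter, 1 CPM in 3 libraries, the 2 groups alone, glmTreat at a log2 fold change of 1, a replicate block and libraries left out.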

Additional observations from a re-analysis of the deposited data

How the results depend on the processing

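For injured over uninjured cortex 4 were called, 4 to 6 with 1 library left out, 7 with no filter on low counts (Egr2, Klf6 and Ier2 added) and 1, Nr4a2, with uninjured replicates 2 and 3 left out. In culture, 8 were called against injured cortex and 6 against uninjured cortex, and 8 to 10 and 6 to 7 over all alternatives. Over all genes, 2145 were called after injury, 974 to 4102 with 1 library left out (974 when injured replicate 1 was dropped, 4102 for injured replicate 3, 1123 for uninjured replicate 2 and 1284 for uninjured replicate 3), 1369 in a fit of the 2 groups alone, 685 with glmTreat and 462 without uninjured replicates 2 and 3. glmTreat called 4626 of 9057 for culture against injured cortex and 6350 of 10954 against uninjured cortex, where leaving out uninjured replicates 2 and 3 gave 6997. The remaining lone uninjured library is assumed to vary like the other groups.

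Values that changed sign were not called with all 9 libraries under TMM. After injury, Klf4 was -0.0088 with upper-quartile scaling, -0.037 with trimmed library sizes and -0.052 to 0.47 with 1 library left out. Egr1 ranged from -0.068 to 1.16 and Klf2 from -0.012 to 1.04 with 1 library left out, and Egr1 was -0.45 and Egr2 -0.13 without uninjured replicates 2 and 3. In culture over uninjured cortex, Egr2 was 0.66 and Klf6 0.0056 with limma-voom, and with 1 library left out Egr2 ranged from -0.54 to 1.50 and Klf6 from -0.40 to 0.23. The cause was not tested. Deviations of same-numbered libraries correlated at 0.15, -0.09 and 0.35 between injured and uninjured cortex. Injured replicates 1 and 3 correlated best with the uninjured library of the same number, and injured replicate 2 with uninjured replicate 1 (0.27). Deviations from a mean of 3 libraries depend on one another, so these values cannot decide whether the replicate numbers pair the samples. With the replicate block, Egr2 was 0.38 and Klf6 0.011 in culture over uninjured cortex, and 4, 9 and 6 of the 10 genes were called in the 3 comparisons. Higher genes made up 75.8% of all calls after injury and 64.0% with upper-quartile scaling, and with trimmed library sizes 29.8% instead of 39.9% and 32.1% instead of 45.4% in the culture comparisons, where the median gene moved by -0.25 and -0.40. It moved by -0.15 after injury with trimmed library sizes, and by -0.12 and -0.20 with upper-quartile scaling after injury and in culture over uninjured cortex. Nr4a3 and Egr4 had few counts in cultures and uninjured cortex, which limits their precision.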
